A study of Mus musculus with 4 samples.

Results

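The genes described here are 40 genes of DNA damage signaling and DNA repair, taken by symbol from a fixed list, and all 40 were among the 18605 genes present in the count tables of all 4 libraries. They comprise 8 genes of damage sensing and checkpoint signaling, 15 of homologous recombination and end resection, 7 of end joining, 6 of single-strand break and excision repair, and 4 of crosslink and mismatch repair. The study profiled subcutaneous tumors of LLC, a mouse Lewis lung carcinoma cell line, by scRNA-seq with a 3′ kit to follow the early response to hypofractionated radiotherapy. The hosts were C57BL/6N mice, labelled C57/BL6N, aged 6 to 8 weeks. The control group (NT) received mock treatment, and its 3 tumors were pooled into 1 library. The radiotherapy group (RT) received 3 fractions of 8 Gy, 24 Gy in total, on days 7 to 9 after injection, and comprised 3 libraries, RT1, RT2 and RT3, each made from 1 tumor. All tumors were taken 72 h after radiation or mock treatment. The 4 libraries were labelled as separate samples, so the spread over RT1, RT2 and RT3 is that between 3 tumors, while the spread between NT tumors is not given by a pool.

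Broken DNA is sensed by the kinases ATM and ATR, which activate the checkpoint kinases CHEK1 and CHEK2 and, through them and p53, hold the cell cycle. Double-strand breaks are then either rejoined end to end by the Ku proteins, DNA-PKcs and LIG4 at any time in the cell cycle, or copied from the sister chromatid by homologous recombination, which needs BRCA1 and BRCA2 and runs mainly in S and G2 phase. Single-strand breaks, bulky adducts, crosslinks and mismatches are handled by separate sets of proteins, and many genes of these pathways are transcribed with the DNA replication program.

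The 4 libraries held 10141, 15346, 14994 and 15324 barcodes (NT, RT1, RT2 and RT3, the order used throughout), of which 9976, 15029, 14993 and 15060 were kept, with a median of 5709, 3865, 5200 and 4158 UMIs per kept cell. The RT2 table stood apart, since it listed 18605 genes where the others listed 32285, and its highest share of mitochondrial UMIs in a barcode was 11.95% against 92.6%, 91.5% and 97.0% in NT, RT1 and RT3. Between 182 and 277 barcodes were shared by each pair of libraries. Levels are CPM, that is UMIs per 1000000 UMIs summed over the cells of a type in a library. A lower sum can come from fewer cells with the transcript or from less of it per cell, and the sums do not separate these. The repair genes had 65826, 65232, 72421 and 72116 UMIs in the 4 libraries.

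Cells were named from clusters built without the repair genes. Tumor cells numbered 6818, 6961, 6481 and 8465 and held 88.9%, 75.8%, 75.5% and 84.3% of the repair gene UMIs. Over all libraries there were 5921 macrophages, 6096 monocytes, 1723 lymphocytes, 589 neutrophils, 545 dendritic cells, 409 fibroblasts and 340 endothelial cells, and 10710 cells stayed unnamed. One unnamed cluster of 4055 cells was led by Lum and Dcn, had Rhox5 at 1152 CPM, and was kept apart from the tumor cells because fibroblast markers outnumbered tumor markers among its leading genes. The tumor label fitted its markers. Rhox5, a homeobox gene active in LLC cells, reached 1063, 1299, 1198 and 1181 CPM in tumor cells and 39.5, 71.3, 60.7 and 94.4 CPM in macrophages, while C1qb, a complement gene of macrophages, reached 0.840, 8.44, 12.9 and 4.19 CPM in tumor cells and 1891, 3844, 4906 and 3613 CPM in macrophages. Cd3e, which defines T cells, stayed at or below 0.147 CPM in tumor cells and 0.544 CPM in macrophages.

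Transcripts of other cell types in tumor cells differed between the groups. The 8 macrophage markers summed to 7.99 CPM among NT tumor cells, with RT1, RT2 and RT3 at 37.2, 47.1 and 21.6 CPM, all 8 were higher in every RT library, and the most abundant, Cd68, went from 2.999 to 8.04, 8.11 and 7.39 CPM. The 7 fibroblast markers summed to 839 CPM in NT and 1364, 1089 and 1278 CPM in RT, 5 of 7 were higher in every RT library, and Col3a1 made up most of the sum with 722 CPM in NT and 1059, 911 and 1041 CPM in RT. Col1a1, which defines fibroblasts, was at 2.502 CPM in NT and 1.66, 4.39 and 2.94 CPM in RT. All 7 neutrophil markers were higher in every RT library, with sums of 2.49 CPM in NT and 5.37, 9.43 and 6.42 CPM in RT. Monocyte markers, 6 of 7 higher in every RT library, summed to 106 CPM in NT and 151, 169 and 159 CPM in RT. The 8 dendritic markers summed to 411 CPM in NT and 237, 313 and 288 CPM in RT. Of these, 3 were higher and 2 lower in every RT library, and Fscn1 made up most of the sum. No marker of these lists was at 0 in every library, and the part of these transcripts in the values of the repair genes in tumor cells was not tested.

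Repair genes were first read against the cell cycle of the tumor cells, since many of them follow it. Each tumor cell was thinned to 2000 UMIs and scored with lists of S and G2M genes that held no repair gene, and 2743 cells with fewer UMIs were left out. The S class held 17.4%, 18.5%, 14.3% and 16.1% of the scored cells, the G2M class 42.1%, 41.5%, 29.9% and 41.2%, and the remaining 40.5%, 40.1%, 55.8% and 42.7% were in neither class. RT2 therefore had fewer scored cells in G2M than the other 3 libraries. The classes are ranges of a score and not separate cell types, and 8008 of the 25982 scored cells (30.8%) lay within 0.1 of a class boundary. Cells of the S class also carried G2M transcripts, with all 54 tested genes of the G2M list higher than in cells of neither class.

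Most repair genes were higher in cycling tumor cells. Of the 39 tested, 30 were higher in the S class than in cells of neither class, 5 were lower and 4 were not called, with all 4 libraries fitted together by edgeR's quasi-likelihood test with the library as block and an adjusted p under 0.05 over all genes. Of the 11003 genes tested, 32.4% were called higher and 35.5% lower. The median log2 fold change was 0.89 over the repair genes and -0.04 over all genes tested. With a change of at least 1 on the log2 scale required as well, 19 repair genes were higher and none lower, where 5.56% and 4.39% of all genes tested met this rule. The remaining gene, Xrcc3, a recombination gene, had too few UMIs to be tested, with 0.282, 0.857, 0.860 and 0.634 CPM in S cells.

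**Figure D1:**
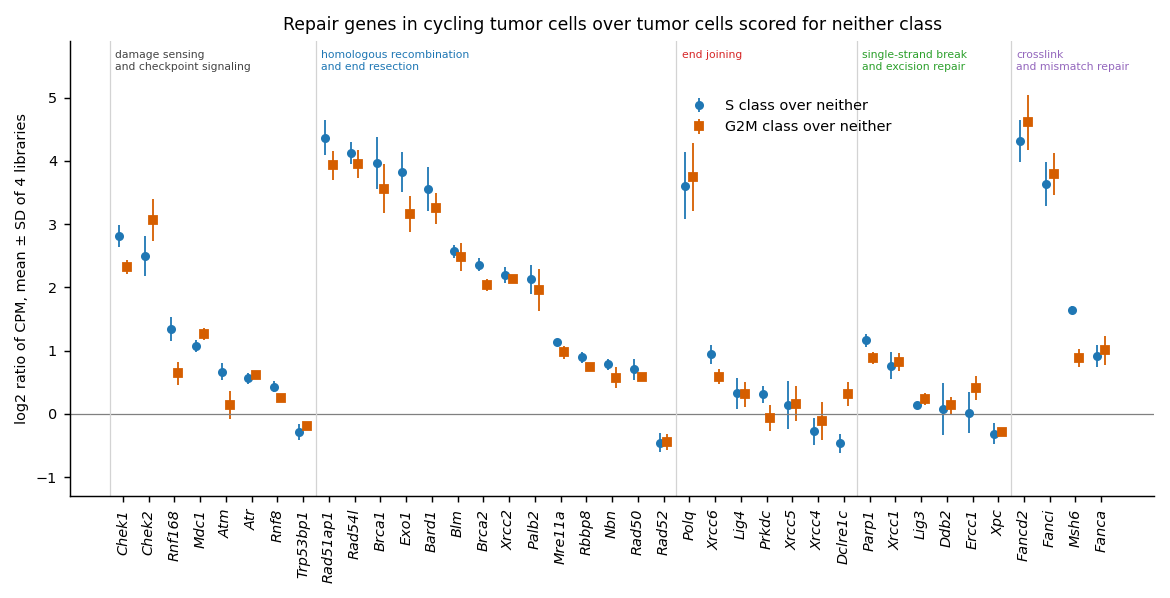
Log2 ratio of CPM in the S class (circles) and the G2M class (squares) over tumor cells of neither class, for 39 repair genes ordered by role along the horizontal axis. Points are means and bars SD over the 4 libraries. Homologous recombination genes spread from about -0.5 for Rad52 to above 4 for Rad51ap1, while most end joining and excision genes lie near 0.

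Genes of damage sensing and checkpoint signaling were higher in S cells for 7 of 8 and lower for 1. For this and each role below, the shares over all genes tested are 32.4% higher and 35.5% lower. Chek1, the checkpoint kinase that acts below ATR during replication, stood at 49.5, 44.8, 39.6 and 43.3 CPM in S cells, 31.6, 36.4, 28.6 and 29.98 CPM in G2M cells and 6.14, 7.28, 5.32 and 6.63 CPM in cells of neither class. The ranges did not overlap, and the log2 fold change was 2.75 in S (edgeR adjusted p = 2.8e-13; ratio per library 2.81 ± 0.18, SD, n = 4) and 2.26 in G2M. Atm, the kinase that responds to double-strand breaks, stood at 13.7, 10.5, 10.3 and 11.6 CPM in S cells, 9.38, 6.11, 8.18 and 8.64 CPM in G2M cells and 9.63, 6.14, 6.03 and 7.56 CPM in cells of neither class. It was higher in S cells of every library, by 0.60 on the log2 scale (edgeR adjusted p = 5.2e-05), and in G2M its log2 fold change of 0.10 was not called. Chek2, the checkpoint kinase below ATM, was higher by 2.44 in S and 3.03 in G2M. Rnf168, a ubiquitin ligase that marks damaged chromatin, and Mdc1, a scaffold on phosphorylated histone H2AX, were higher by 1.29 and 1.03 in S. Atr and Rnf8, the ligase that acts before RNF168, were higher by 0.50 and 0.38. Trp53bp1, whose protein 53BP1 protects breaks from resection, went the other way with 39.9, 49.6, 28.6 and 39.03 CPM in S cells, 41.5, 47.3, 33 and 43.9 CPM in G2M cells and 49.1, 53.7, 38.5 and 47.6 CPM in cells of neither class. Its S cells were below cells of neither class in all 4 libraries, and it fell by 0.34 on the log2 scale in S.

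Homologous recombination and end resection held the largest S log2 fold change of the 39, that of Rad51ap1, with 13 of 14 tested genes higher in S cells and 1 lower. Rad51ap1, whose protein promotes strand pairing in recombination, was at 82.7, 75.95, 71.04 and 75.99 CPM in S cells, 60.5, 58.8, 50.6 and 55.9 CPM in G2M cells and 3.26, 4.68, 3.204 and 3.802 CPM in cells of neither class. The lowest S value was far above the highest value of neither class, and the log2 fold change was 4.31 (edgeR adjusted p = 5.1e-15; 4.37 ± 0.27 per library, SD, n = 4). Rad54l, a motor protein that remodels DNA for strand exchange, was at 15.5, 16.4, 19.7 and 17.3 CPM in S cells, 13.1, 15.7, 17.6 and 14.9 CPM in G2M cells and 0.8299, 0.823, 1.23 and 1.11 CPM in cells of neither class. Brca1, which favors resection and recombination, was at 38.6, 41.1, 28.4 and 37.9 CPM in S cells, 28.3, 32.03, 21.6 and 28.9 CPM in G2M cells and 1.66, 3.16, 1.81 and 3.06 CPM in cells of neither class. Exo1, a nuclease that resects DNA ends, was at 75.9, 75.95, 76.1 and 79.8 CPM in S cells, 45.9, 49.2, 48.7 and 50.7 CPM in G2M cells and 3.98, 6.84, 5.66 and 5.66 CPM in cells of neither class. In these 3 genes too no library of the S or G2M class overlapped with neither class, with log2 fold changes in S of 4.01, 3.85 and 3.74. Bard1, the partner of BRCA1, was higher by 3.51, the helicase gene Blm by 2.497, Brca2, the other breast cancer susceptibility gene of the pathway, by 2.30, the recombination gene Xrcc2 by 2.14 and Palb2, which links BRCA1 to BRCA2, by 2.05. The MRN complex, which binds broken ends first, moved less, with 1.07 for its nuclease gene Mre11a, 0.72 for Nbn and 0.65 for Rad50, and Rbbp8, whose protein CtIP starts resection with MRN, was higher by 0.84. Rad52, a single-strand annealing protein, was the exception with 13.1, 8.57, 12.7 and 10.5 CPM in S cells, 12.9, 9.33, 10.3 and 12.3 CPM in G2M cells and 19.1, 11.9, 14.9 and 15.5 CPM in cells of neither class. It was lower in both cycling classes of every library, and fell by 0.51 on the log2 scale in S (edgeR adjusted p = 1.1e-04).

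In end joining 4 of 7 genes were higher, 2 lower and 1 not called in S, where 32.4% of all genes tested were higher and 35.5% lower. Polq, the polymerase of theta-mediated end joining, was at 6.58, 8.14, 7.05 and 10.7 CPM in S cells, 7.63, 10.03, 7.65 and 10.01 CPM in G2M cells and 0.332, 1.01, 0.613 and 0.881 CPM in cells of neither class. It rose by 3.46 in S and 3.58 in G2M on the log2 scale. Of the 6 other genes, which belong to the classical pathway, 3 were higher, 2 lower and 1 not called in S. Xrcc6, the gene of Ku70, was at 37.8, 49.5, 52.4 and 52.3 CPM in S cells, 31.4, 36.98, 40.5 and 40.7 CPM in G2M cells and 22.1, 25.95, 23.8 and 27.5 CPM in cells of neither class, higher by 0.89 in S (edgeR adjusted p = 6.9e-09). Xrcc5, the gene of its partner Ku80, was at 6.11, 8.36, 10.4 and 5.52 CPM in S cells, 4.603, 9.12, 11.2 and 6.54 CPM in G2M cells and 4.48, 6.84, 8.76 and 7.33 CPM in cells of neither class. Values of the Xrcc5 classes overlapped, and neither its S nor its G2M log2 fold change (0.08 and 0.12) was called. Prkdc, the gene of the kinase DNA-PKcs that Ku recruits, was at 17.9, 15.5, 9.72 and 17.3 CPM in S cells, 12.1, 12.96, 8.34 and 12.8 CPM in G2M cells and 14.8, 11.3, 8.86 and 13.4 CPM in cells of neither class. It was higher in S in each library, by 0.25 on the log2 scale, and was not called in G2M at -0.13. Lig4, the ligase of the pathway, was higher by 0.26 in S. Xrcc4, its scaffold, was at 7.42, 8.89, 8.86 and 7.43 CPM in S cells, 10.3, 8.38, 8.18 and 9.73 CPM in G2M cells and 8.797, 11.96, 8.79 and 10.1 CPM in cells of neither class, and Dclre1c, the gene of the nuclease Artemis that opens hairpin ends, was at 1.13, 1.29, 1.12 and 1.45 CPM in S cells, 2.06, 1.69, 2.25 and 2.62 CPM in G2M cells and 1.77, 1.58, 1.602 and 1.901 CPM in cells of neither class. Both were lower in S, Xrcc4 in 3 of 4 libraries and Dclre1c in 4 of 4, with log2 fold changes of -0.33 and -0.52 (edgeR adjusted p = 0.011 and 0.045). The Dclre1c call was lost without any 1 library, at adjusted p from 0.0594 without RT1 to 0.121 without RT2, and that of Xrcc4 without RT1 (0.0586) or RT3 (0.0722). The S calls of Lig4 (adjusted p = 0.173 without NT and 0.151 without RT3) and Prkdc (0.102 without RT1 and 0.0806 without RT3) were lost as well. Neither Xrcc4 nor Dclre1c was called in G2M.

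Single-strand break and excision repair had 2 of 6 genes higher, 1 lower and 3 not called in S. Its 33.3% of genes higher is close to the 32.4% of all genes tested, of which 35.5% were lower. Parp1, the sensor of single-strand breaks, was at 247, 229, 206 and 234 CPM in S cells, 205, 185, 168 and 195 CPM in G2M cells and 116, 105, 83.1 and 107 CPM in cells of neither class. The groups did not overlap, and the log2 fold change was 1.10 in S and 0.82 in G2M. Xrcc1, the scaffold that follows PARP1, was higher by 0.72, while its partner Lig3 was not called in S at 0.08. Xpc, which recognizes distorted DNA in nucleotide excision repair, was at 12.4, 14.6, 12.3 and 13.5 CPM in S cells, 15.4, 14.1, 11.3 and 12.9 CPM in G2M cells and 18.3, 17.03, 14.3 and 16 CPM in cells of neither class. It was lower in S and in G2M in every library, with log2 fold changes of -0.37 and -0.35. Ddb2, which hands ultraviolet lesions to XPC, was at 1.22, 3.75, 3.44 and 2.99 CPM in S cells, 2.199, 3.14, 2.97 and 2.68 CPM in G2M cells and 1.77, 3.16, 2.79 and 2.41 CPM in cells of neither class, and Ercc1, part of an excision nuclease, was not called in S at 0.05. For Ddb2 the S cells of NT were lower and those of the 3 RT libraries higher than cells of neither class, and no difference was called.

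All 4 genes of crosslink and mismatch repair were higher in S. Fancd2, which is ubiquitinated at stalled forks, was at 11.9, 12.96, 11.2 and 12.2 CPM in S cells, 16.1, 17.4, 11.8 and 14.2 CPM in G2M cells and 0.443, 0.696, 0.545 and 0.788 CPM in cells of neither class. Its partner Fanci was at 7.51, 9.43, 9.72 and 11.1 CPM in S cells, 9.96, 11.2, 9.52 and 11.2 CPM in G2M cells and 0.719, 0.696, 0.579 and 1.11 CPM in cells of neither class. Both had no overlap between cycling cells and cells of neither class, with log2 fold changes in S of 4.20 and 3.56. Msh6, a mismatch recognition subunit, was at 102, 89.99, 62.6 and 75.4 CPM in S cells, 54.4, 54.03, 38.8 and 45.9 CPM in G2M cells and 33.03, 30.002, 18.7 and 24.3 CPM in cells of neither class. Its S cells exceeded its G2M cells in each library, with log2 fold changes over neither class of 1.59 and 0.82. Fanca, of the Fanconi core complex, was higher by 0.85.

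The G2M class gave much the same list sizes. Again 30 of 39 genes were higher, 3 were lower (Rad52, Xpc and Trp53bp1) and 6 were not called, where 30.9% of 11421 genes tested were higher and 37.3% lower by edgeR's test. At least 1 higher on the log2 scale were 15 repair genes, against 5.24% of all genes, and none at least 1 lower, against 4.29%. The largest G2M log2 fold changes were 4.48 for Fancd2, 3.87 for Rad51ap1, 3.85 for Rad54l, 3.69 for Fanci, 3.58 for Polq and 3.46 for Brca1. The S and G2M comparisons share the cells of neither class, so they are not independent of each other.

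Of 90 other repair genes tested, 64 were higher and 7 lower in S, where 32.4% and 35.5% of all genes were. In G2M 60 were higher and 7 lower, where 30.9% and 37.3% of all genes were. The glycosylase gene Neil3 was at 22.7, 22.3, 21.7 and 18.4 CPM in S cells, 39.1, 32.03, 22.95 and 24.7 CPM in G2M cells and 0.996, 1.01, 0.818 and 1.16 CPM in cells of neither class. Clspn, the gene of the checkpoint mediator claspin, was at 71.7, 51.8, 50.9 and 55.3 CPM in S cells, 40.8, 35.7, 32.6 and 32.9 CPM in G2M cells and 3.04, 3.101, 2.69 and 3.38 CPM in cells of neither class. Neither gene overlapped between cycling cells and cells of neither class. They were higher in S with log2 fold changes of 4.36 and 4.16, and Neil3, Eme1 and Gen1 were higher in G2M with 4.80, 4.28 and 4.02. Mus81, whose nuclease works with EME1 on joint molecules, was at 1.41, 0.964, 1.63 and 2.08 CPM in S cells, 1.85, 1.07, 1.83 and 1.56 CPM in G2M cells and 2.16, 1.27, 3.34 and 2.597 CPM in cells of neither class, and Neil2, another glycosylase gene, and Paxx, an end joining factor, were also lower in S. Their S log2 fold changes were -0.69, -0.60 and -0.48, and in G2M Neil2, Mus81 and the polymerase gene Rev3l were lower with -0.89, -0.63 and -0.40.

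Promoters are shown because 30 of the 39 tested genes were higher in S cells. RefSeq promoters of GRCm38.p6, from 250 bases before to 50 bases after the annotated start, matched 31 of the 40 genes with 33 promoters. Rad50, Nbn, Xrcc2, Exo1, Rbbp8, Prkdc, Fancd2, Xpc and Ddb2 had no entry. The 3 promoters with a match printed first are those of the genes with the largest S log2 fold change that held letters of an E2F site, followed by Rad51ap1 as the gene with the largest S log2 fold change of the 39 tested and Ercc1 and Lig3 as genes near 0. Their positions are chr1:71102923-71103222, minus strand for Bard1, chr5:110839733-110840032, plus strand for Chek2, chr5:150522371-150522670, plus strand for Brca2, chr6:126939538-126939837, minus strand for Rad51ap1, chr7:19344821-19345120, plus strand for Ercc1 and chr11:82780859-82781158, plus strand for Lig3. Capitals mark TTTGGCGC, TTTCGCGC, TTTCCCGC or TTTGCCGC on either strand. Sequences are 5′ to 3′ on the gene's strand.
Bard1: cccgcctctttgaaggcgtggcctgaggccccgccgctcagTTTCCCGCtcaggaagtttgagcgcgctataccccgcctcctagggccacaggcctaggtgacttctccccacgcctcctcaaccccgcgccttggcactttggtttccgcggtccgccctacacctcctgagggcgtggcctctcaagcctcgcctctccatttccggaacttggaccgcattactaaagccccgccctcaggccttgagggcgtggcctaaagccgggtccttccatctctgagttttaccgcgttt
Chek2: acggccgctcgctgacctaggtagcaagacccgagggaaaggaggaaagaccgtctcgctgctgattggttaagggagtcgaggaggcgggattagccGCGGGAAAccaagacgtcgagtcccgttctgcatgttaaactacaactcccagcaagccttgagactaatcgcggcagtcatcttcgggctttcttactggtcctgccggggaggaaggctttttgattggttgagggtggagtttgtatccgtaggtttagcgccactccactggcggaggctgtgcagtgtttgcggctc
Brca2: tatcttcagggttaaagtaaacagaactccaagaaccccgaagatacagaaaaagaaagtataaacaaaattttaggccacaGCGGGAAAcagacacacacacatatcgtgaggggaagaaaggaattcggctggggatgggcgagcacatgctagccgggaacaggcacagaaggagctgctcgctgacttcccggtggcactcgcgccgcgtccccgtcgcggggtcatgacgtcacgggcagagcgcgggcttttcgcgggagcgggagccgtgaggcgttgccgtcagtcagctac
Rad51ap1: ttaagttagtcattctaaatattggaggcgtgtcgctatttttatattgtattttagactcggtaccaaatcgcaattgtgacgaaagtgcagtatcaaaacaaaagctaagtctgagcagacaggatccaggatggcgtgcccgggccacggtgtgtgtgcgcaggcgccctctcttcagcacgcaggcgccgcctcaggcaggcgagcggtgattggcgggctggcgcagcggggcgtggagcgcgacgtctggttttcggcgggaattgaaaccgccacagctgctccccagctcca
Ercc1: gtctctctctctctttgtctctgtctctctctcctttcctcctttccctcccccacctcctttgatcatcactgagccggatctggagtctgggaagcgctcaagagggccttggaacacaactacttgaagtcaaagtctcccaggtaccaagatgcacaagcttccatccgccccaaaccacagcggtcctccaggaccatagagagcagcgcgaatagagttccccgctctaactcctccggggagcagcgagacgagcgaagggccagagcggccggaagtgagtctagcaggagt
Lig3: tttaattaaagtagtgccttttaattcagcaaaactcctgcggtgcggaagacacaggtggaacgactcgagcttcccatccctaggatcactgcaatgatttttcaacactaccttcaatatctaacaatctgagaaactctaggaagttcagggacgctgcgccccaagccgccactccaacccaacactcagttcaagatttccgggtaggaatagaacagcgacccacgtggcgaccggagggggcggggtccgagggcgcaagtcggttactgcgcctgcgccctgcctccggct

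These E2F letters occurred in 744 of 32851 promoters (2.26%) and in 6 of 33 promoters of the repair genes (18.2%). By cycle group they occurred in 5 of 17 promoters of genes at least 1 higher in S (29.4%; Bard1, Chek2, Brca2, Mdc1 and Msh6), in 1 of 7 of genes between 0.5 and 1 in size (Xrcc6) and in 0 of 8 of genes under 0.5. Among all genes at least 1 higher in S, 14.9% of promoters held them, and among all genes tested 4.16%. The letters of a cell cycle homology element, TTTGAA on either strand, were in 3 of 33 promoters of the repair genes (9.09%; Bard1, Polq and Rnf8) in 17.9% of all promoters, in 11.95% of those of all genes tested and in 26.1% of those of all genes at least 1 higher in S. TTTGAA and the E2F letters begin alike, but in the Bard1 promoter the matches do not overlap, and the TTTGAA match is left in lower case. A match is a run of letters in this window and not a measured site.

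The comparison of RT with NT in tumor cells asks which repair genes differ 72 h after radiation. None of the 40 lay at least 0.5 on the log2 scale to the same side of NT in all 3 RT libraries, the size rule used here in place of a test, since 1 NT library gives no spread and no p-value. Of 12405 genes, 8.79% met this rule upward and 1.62% downward. The median log2 ratio of the repair genes was 0.01, -0.22 and -0.09 in RT1, RT2 and RT3, against 0.02, -0.02 and -0.03 for all genes. Whatever the size, 5 lay above NT in all 3 (Xrcc5, Ddb2, Xrcc6, Xrcc1 and Rad54l) and 17 lay below, where 30.5% and 31.1% of all genes did.

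**Figure D2:**
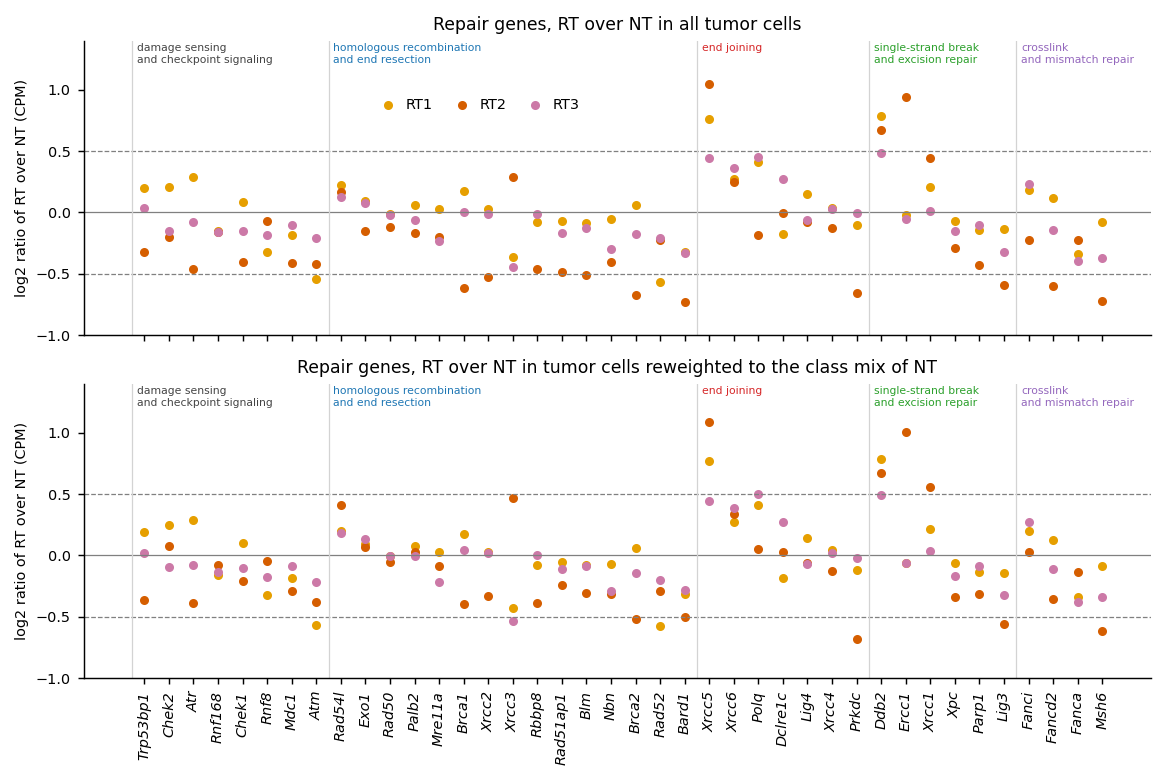
Log2 ratio of CPM in RT1, RT2 and RT3 (colored points) over NT for the 40 repair genes by role, in all tumor cells (top) and with the class mix of NT imposed (bottom). Dashed lines mark 0.5 to either side of 0. RT2 gives the lowest point for most recombination genes in the top panel, and Xrcc5 and Ddb2 lie highest of the genes with all 3 points above 0.

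The genes nearest to the rule upward were Xrcc5 and Ddb2. Xrcc5 was at 4.88 CPM in NT (counting interval 4.33 to 5.49), with RT1, RT2 and RT3 at 8.28, 10.1 and 6.63 CPM. All 3 RT libraries exceeded the interval of NT, which covers counting error only, and the log2 ratio averaged 0.75 ± 0.30 (SD, n = 3), with RT3 at 0.44. Ddb2 was at 1.89 CPM in NT (counting interval 1.55 to 2.27), with RT1, RT2 and RT3 at 3.25, 2.996 and 2.63 CPM. Here too every RT library was above the interval, with a mean log2 ratio of 0.65 ± 0.15 from 110 UMIs in NT, and RT3 at 0.48 was again the one under the rule. With TMM scaling, without the highest doublet scores or without shared barcodes Ddb2 met the rule. Xrcc6, the other Ku gene, was at 29.7 CPM in NT (counting interval 28.3 to 31.1), with RT1, RT2 and RT3 at 35.9, 35.3 and 38.2 CPM, a smaller difference of 0.30 ± 0.06 on the log2 scale that all 3 libraries shared. Ercc1 was at 3.07 CPM in NT (counting interval 2.63 to 3.55), with RT1, RT2 and RT3 at 3.03, 5.905 and 2.95 CPM, so that its mean log2 ratio of 0.29 ± 0.57 rested on RT2 alone.

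No signaling or recombination gene met the size rule in either direction. Atm was at 10.3 CPM in NT (counting interval 9.51 to 11.2), with RT1, RT2 and RT3 at 7.102, 7.73 and 8.91 CPM. All 3 RT libraries were below the interval of NT, with a mean log2 ratio of -0.39 ± 0.17, with RT1 past 0.5 and RT3 at -0.21. Chek1 was at 26.9 CPM in NT (counting interval 25.6 to 28.3), with RT1, RT2 and RT3 at 28.5, 20.4 and 24.3 CPM. Brca1 was at 21.9 CPM in NT (counting interval 20.7 to 23.1), with RT1, RT2 and RT3 at 24.7, 14.2 and 21.9 CPM. Rad51ap1 was at 46.6 CPM in NT (counting interval 44.9 to 48.4), with RT1, RT2 and RT3 at 44.5, 33.3 and 41.6 CPM. In these 3 genes RT2 was the lowest library and RT1 was close to NT or above it. Bard1 lay lowest of all by its mean log2 ratio, at -0.46 ± 0.23, with RT1 and RT3 at -0.32 and -0.33 and RT2 at -0.73. Rad52 was also below NT in all 3 with a mean of -0.33 ± 0.20, and Rad54l was the one recombination gene above NT in all 3, at 0.17 ± 0.05.

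Of the end joining, excision and mismatch genes, Prkdc was at 13.98 CPM in NT (counting interval 13.04 to 14.98), with RT1, RT2 and RT3 at 13.1, 8.86 and 13.9 CPM, with RT1 and RT3 close to NT. Parp1 was at 185 CPM in NT (counting interval 181 to 188), with RT1, RT2 and RT3 at 168, 138 and 172 CPM, and every RT library was below the interval. Fancd2 was at 10.4 CPM in NT (counting interval 9.61 to 11.3), with RT1, RT2 and RT3 at 11.3, 6.86 and 9.43 CPM. Msh6 was at 56.3 CPM in NT (counting interval 54.4 to 58.3), with RT1, RT2 and RT3 at 53.3, 34.2 and 43.7 CPM, and its RT values all lay below the NT interval, with RT2 the lowest. Xpc was at 15.7 CPM in NT (counting interval 14.7 to 16.8), with RT1, RT2 and RT3 at 14.98, 12.8 and 14.2 CPM, within the interval in RT1 and below it in RT2 and RT3. Across roles the median of the mean log2 ratios was -0.16 for signaling, -0.17 for recombination, 0.03 for end joining, 0.03 for excision and -0.26 for crosslink and mismatch repair.

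RT2 also had the largest share of cells in neither class, so the values were read again by cell cycle class. Within the G2M class the G2M list summed to 11817 CPM in NT and 11021, 10175 and 10694 CPM in RT. There the S list went the other way, with 2457 CPM in NT and 2709, 2504 and 2502 CPM in RT. Weighting by class does not remove such differences within a class. In total the 19 cycle-linked genes, those called at least 1 higher in S, summed to 587 CPM in NT and 569, 440 and 537 CPM in RT, and the other 21 to 415 CPM in NT and 417, 363 and 398 CPM in RT. With the 3 classes of each RT library weighted as in NT, the median log2 ratio of the 19 moved from 0.06, -0.41 and -0.13 to 0.06, -0.24 and -0.09. After this weighting 8 repair genes lay above NT in all 3 RT libraries and 16 below, where 30.3% and 31.5% of all genes did, and none met the size rule, where 8.54% and 1.57% did.

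Within single classes, few genes met the size rule. Among cells of neither class 36 repair genes had enough UMIs, and Exo1 and Xrcc5 were higher, with 7.27% of all genes higher and 1.86% lower. Exo1 went from 3.98 CPM in NT to 6.84, 5.66 and 5.66 CPM in RT, and Xrcc5 from 4.48 CPM to 6.84, 8.76 and 7.33 CPM. Exo1 passed the rule in RT2 and RT3 at a log2 ratio of 0.51, and it no longer passed with at most 10% mitochondrial UMIs, without the highest doublet scores, with clusters not integrated, without shared barcodes, with the cluster led by fibroblast markers, with phases scored on all UMIs or with cells far from a class boundary, while Xrcc5 passed in each of these. In the S class 1 of 38 was higher, Ddb2, from 1.22 CPM with 13 UMIs in NT (counting interval 0.65 to 2.09) to 3.75, 3.44 and 2.99 CPM, where 6.33% of all genes were higher. Ddb2 did not pass there with a mean of at least 50 UMIs or with cells far from a class boundary. In the G2M class 1 of 39 was higher, Xrcc5, from 4.603 to 9.12, 11.2 and 6.54 CPM, where 7.49% of all genes were. There RT3 passed the rule at a log2 ratio of 0.51, and Xrcc5 no longer passed with at most 10% mitochondrial UMIs, with clusters not integrated, with the cluster led by fibroblast markers, with phases scored on all UMIs and with cells far from a class boundary. No repair gene met the rule downward in any class, where 1.86%, 1.83% and 1.71% of all genes did in neither, S and G2M. Whatever the size, 9 lay above and 9 below NT in neither class (28.2% and 30.6% of all genes), 9 and 16 in S (28.2% and 31.3%) and 6 and 17 in G2M (29.1% and 33.3%).

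Among the 90 other repair genes in tumor cells, 6 met the rule upward and 2 downward, shares close to the 8.79% and 1.62% of all genes. Aptx, whose protein aprataxin cleans up abortive ligation ends, was at 3.08 CPM in NT (counting interval 2.65 to 3.57), with RT1, RT2 and RT3 at 8.62, 11.2 and 6.25 CPM. Lig1, the ligase of replication and excision repair, was at 31.9 CPM in NT (counting interval 30.4 to 33.3), with RT1, RT2 and RT3 at 74.01, 87.8 and 48.1 CPM. Paxx was at 2.02 CPM in NT (counting interval 1.67 to 2.42), with RT1, RT2 and RT3 at 3.75, 6.301 and 2.97 CPM. Each of these was above the NT interval in every RT library, and RT2 was the highest for all 3. H2afx, the gene of the histone H2AX that is phosphorylated at breaks, was at 118 CPM in NT (counting interval 115 to 121), with RT1, RT2 and RT3 at 56.95, 74.9 and 74.8 CPM. Fance, of the Fanconi core complex, was at 40.2 CPM in NT (counting interval 38.6 to 41.9), with RT1, RT2 and RT3 at 25.6, 26.1 and 25.6 CPM. Those 2 genes were lower in all 3 RT libraries, with mean log2 ratios of -0.79 ± 0.23 and -0.64 ± 0.02 (SD, n = 3).

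Of the p53 targets in tumor cells, 2 of 10 met the rule upward, where 8.79% of all genes did. These were Cdkn1a, the cell cycle inhibitor p21, and Aen, a nuclease of apoptosis. Cdkn1a was at 19.6 CPM in NT (counting interval 18.5 to 20.8), with RT1, RT2 and RT3 at 41.95, 36.7 and 33.3 CPM. Mdm2, the ligase that degrades p53, was at 64.2 CPM in NT (counting interval 62.1 to 66.3), with RT1, RT2 and RT3 at 82.6, 66.5 and 84.3 CPM, and Ccng1, the gene of cyclin G1, was at 42.8 CPM in NT (counting interval 41.2 to 44.5), with RT1, RT2 and RT3 at 51.4, 42.7 and 41.8 CPM. Cdkn1a was higher in every RT library by 0.92 ± 0.17 on the log2 scale, while Mdm2 and Ccng1 stayed under the rule.

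The repair genes were next compared between cell types, with the library as block. Macrophages had lower levels than tumor cells for 27 of 39 tested genes, higher for 4 and no call for 8, where 37.1% of all genes were higher and 40.2% lower by edgeR's test. The cell cycle lists were lower in macrophages as well, with 25 of 30 tested S genes and 51 of 54 tested G2M genes called. The split of the repair genes depends on scaling, as TMM scaling moved all genes by 0.63 on the log2 scale in favor of macrophages. With scaling to UMI totals alone 32 repair genes were lower and 1 higher (60.7% and 22.9% of all genes), and of the 4 called higher Palb2 and Xrcc4 turned to -0.18 and -0.06. Log2 fold changes below are those with TMM scaling, while CPM are per UMI total.

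Dclre1c was the repair gene that stood highest in macrophages over tumor cells. It was at 1.799, 1.596, 1.79 and 2.17 CPM for tumor cells, 9.98, 14.2, 13.8 and 13.7 CPM for macrophages and 7.296, 3.76, 4.15 and 3.04 CPM for lymphocytes, and its monocytes were at 10.5, 10.1, 10.03 and 11.1 CPM. The log2 fold change was 3.47 (edgeR adjusted p = 3.8e-07; 2.81 ± 0.30 as a ratio of CPM, SD, n = 4), and no macrophage value overlapped with tumor cells under either scaling. Rbbp8 was at 45.9, 43.5, 33.4 and 45.6 CPM for tumor cells, 57.8, 43.5, 47.1 and 50.7 CPM for macrophages and 48.99, 43.8, 27.2 and 52.8 CPM for lymphocytes. Xrcc4 was at 9.27, 9.52, 8.504 and 9.43 CPM for tumor cells, 8.32, 11.9, 8.31 and 6.25 CPM for macrophages and 7.296, 6.26, 5.995 and 13.2 CPM for lymphocytes. Palb2 was at 4.73, 4.93, 4.201 and 4.54 CPM for tumor cells, 4.99, 4.05, 4.12 and 3.24 CPM for macrophages and 12.5, 2.503, 6.46 and 6.09 CPM for lymphocytes. By CPM these 3 genes overlapped between macrophages and tumor cells, and their log2 fold changes of 0.87, 0.58 and 0.46 include the scaling shift. The Palb2 call was lost without NT, RT1 or RT2 (adjusted p = 0.0625, 0.102 and 0.237) and that of Xrcc4 without RT1 or RT2 (0.118 and 0.0689).

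The log2 fold changes of macrophages over tumor cells that were lowest among the 39 genes were those of Exo1 at -2.73, Xrcc5 at -2.29 (edgeR adjusted p = 9.1e-05), Msh6 at -2.11, Chek1 at -2.03, Bard1 at -1.99 and Rad51ap1 at -1.94. Exo1 was at 38.3, 40.7, 34.5 and 40.4 CPM for tumor cells, 8.73, 4.405, 1.71 and 3.702 CPM for macrophages and 36.5, 18.8, 17.5 and 26.4 CPM for lymphocytes. Msh6 was at 56.3, 53.3, 34.2 and 43.7 CPM for tumor cells, 10.4, 7.98, 4.74 and 6.02 CPM for macrophages and 56.3, 30.04, 24.9 and 26.4 CPM for lymphocytes. Rad51ap1 was at 46.6, 44.5, 33.3 and 41.6 CPM for tumor cells, 22.04, 6.19, 3.18 and 5.32 CPM for macrophages and 51.1, 30.04, 31.4 and 29.4 CPM for lymphocytes. In all 3 the macrophages lay below tumor cells in every library and lymphocytes lay above macrophages. Chek1 was at 26.9, 28.5, 20.4 and 24.3 CPM for tumor cells, 10.8, 3.45, 1.79 and 4.63 CPM for macrophages and 19.8, 17.5, 14.3 and 24.4 CPM for lymphocytes. Bard1 was at 29.7, 23.8, 17.9 and 23.6 CPM for tumor cells, 11.6, 3.45, 2.097 and 2.31 CPM for macrophages and 32.3, 20.03, 24.9 and 19.3 CPM for lymphocytes. Brca1 was at 21.9, 24.7, 14.2 and 21.9 CPM for tumor cells, 6.24, 4.405, 2.25 and 3.93 CPM for macrophages and 15.6, 13.8, 14.8 and 17.3 CPM for lymphocytes. For these genes, too, the RT macrophages were lower than the NT macrophages, and lymphocytes were above macrophages in each library. Fancd2 was at 10.4, 11.3, 6.86 and 9.43 CPM for tumor cells, 1.66, 1.905, 0.777 and 2.55 CPM for macrophages and 9.38, 6.26, 6.92 and 4.06 CPM for lymphocytes, and Blm was higher in lymphocytes than in macrophages by 1.91.

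Of the Ku genes and Prkdc, Xrcc6 and Prkdc were tested between macrophages and lymphocytes, and both were called. Xrcc5 was at 4.88, 8.28, 10.1 and 6.63 CPM for tumor cells, 0.416, 1.07, 0.932 and 1.85 CPM for macrophages and 11.5, 7.51, 7.38 and 5.07 CPM for lymphocytes. Xrcc6 was at 29.7, 35.9, 35.3 and 38.2 CPM for tumor cells, 7.07, 7.26, 7.61 and 6.94 CPM for macrophages and 28.1, 21.3, 25.8 and 20.3 CPM for lymphocytes. Prkdc was at 13.98, 13.1, 8.86 and 13.9 CPM for tumor cells, 6.65, 5.24, 3.11 and 3.702 CPM for macrophages and 16.7, 16.3, 14.3 and 17.3 CPM for lymphocytes. For Xrcc5 the macrophage values came from only 30 UMIs over 4 libraries, against 38 in the far fewer lymphocytes, and the gene had too few UMIs to be tested between these types. Xrcc6 and Prkdc were higher in lymphocytes than in macrophages in all 4 libraries, by 1.31 and 1.48 on the log2 scale (edgeR adjusted p = 1.2e-04 and 4.8e-04).

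Sensing and excision genes were more mixed. Atm was at 10.3, 7.102, 7.73 and 8.91 CPM for tumor cells, 10.4, 2.98, 2.25 and 4.16 CPM for macrophages and 13.5, 13.8, 12.9 and 17.3 CPM for lymphocytes. Its NT macrophages were close to the tumor cells while its RT macrophages were lower, and lymphocytes exceeded macrophages by 1.42. Parp1 was at 185, 168, 138 and 172 CPM for tumor cells, 87.7, 59.3, 43.8 and 60.4 CPM for macrophages and 112, 103, 93.2 and 88.3 CPM for lymphocytes. Xpc was at 15.7, 14.98, 12.8 and 14.2 CPM for tumor cells, 5.82, 9.88, 7.53 and 12.3 CPM for macrophages and 3.13, 8.76, 10.6 and 7.103 CPM for lymphocytes. Ddb2 was at 1.89, 3.25, 2.996 and 2.63 CPM for tumor cells, 2.49, 2.26, 1.94 and 2.31 CPM for macrophages and 18.8, 11.3, 9.68 and 13.2 CPM for lymphocytes. Lymphocytes held the highest Ddb2 in all 4 libraries, from 61 UMIs in total, too few for the filter of the test. Parp1 was lower in macrophages than in tumor cells with a log2 fold change of -0.82, and Xpc was not called in either comparison of cell types.

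**Figure D3:**
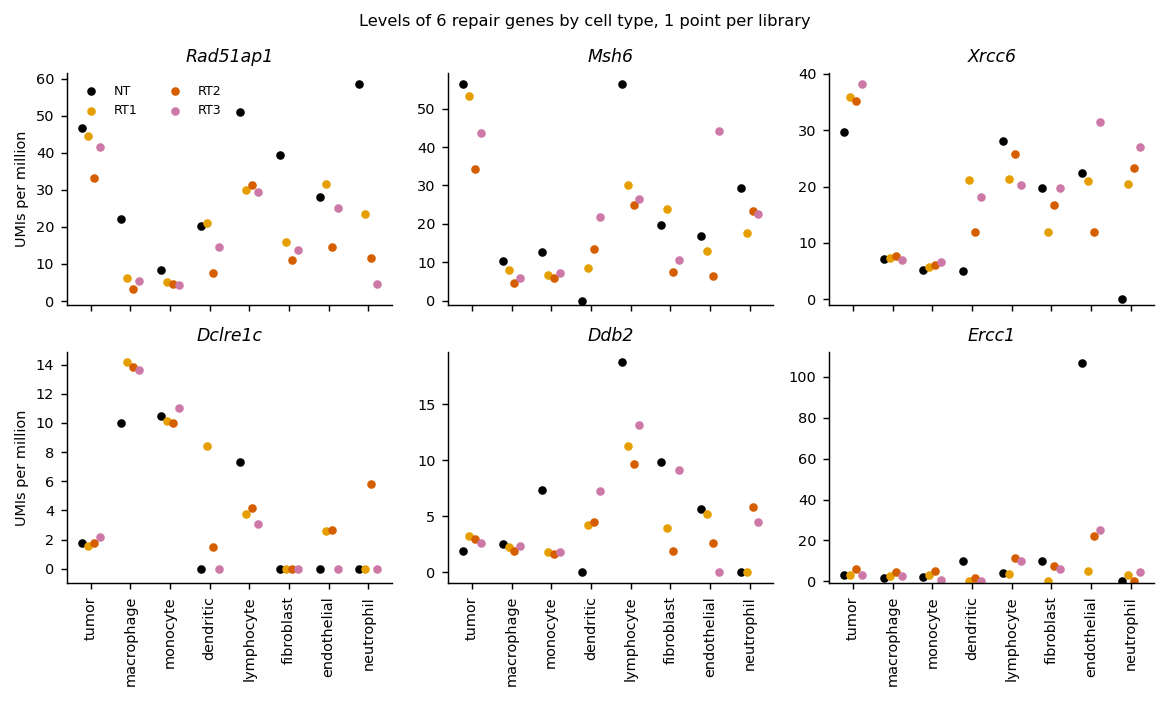
CPM of 6 repair genes in 8 cell types, with 1 point per library. Dclre1c is highest in macrophages and monocytes, Ddb2 in lymphocytes of every library among the 3 types compared, and the single high Ercc1 value in endothelial cells comes from 34 cells of NT.

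Between lymphocytes and macrophages, 16 of 28 tested repair genes were higher and 2 lower in lymphocytes, where 30.4% of all genes were higher and 33.1% lower by edgeR's test. The largest were Bard1 with 2.25, Exo1 with 2.19, Blm with 1.91, Rad51ap1 with 1.90, Msh6 with 1.82 and Chek1 with 1.76. Lower were Dclre1c with -1.94 and Rbbp8 with -0.67, whose call was lost without RT2 (adjusted p = 0.0598). Scaling moved all genes by -0.41 here, and with UMI totals alone 20 repair genes were higher and 1 lower, against 48.1% and 22.6% of all genes. The lymphocytes also had higher S and G2M lists than the macrophages, with 24 of 26 and 47 of 50 tested genes higher.

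Transcripts of tumor cells were present under the barcodes of host cells. Rhox5, Krt8 and Wfdc2 reached 3.56% to 12.6% of their tumor cell level in macrophages and 9.28% to 36.8% in lymphocytes, and 40.7% to 108% in neutrophils, whose repair gene levels are therefore not described. They were at 7.44% to 39.8% in fibroblasts, and in endothelial cells at 2.48% to 9.199% in NT and 7.70% to 87.4% in RT. Of the 40 repair genes, 36 were above the highest of these shares of their own tumor level in all 4 libraries in macrophages, 36 in lymphocytes and 27 in macrophages with 4 or fewer cell cycle UMIs among 2000 UMIs per cell. In that macrophage subset, where the 3 tumor genes were at 3.59% to 10.5% of their tumor cell level, Exo1 was above in no library, and Chek1 and Rad51ap1 were above in 1. In all macrophages Exo1 was above in 2 libraries, and Bard1, Fanci and Xrcc3 were above in 3. The share of all genes above these levels was not computed, so the counts do not set the repair genes apart.

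Other repair genes in macrophages followed the same order, with 55 of 90 lower than in tumor cells and 11 higher, where 40.2% and 37.1% of all genes were. The glycosylase gene Neil1 and the polymerase gene Polb were higher by 1.07 and 0.96, and Gen1, Neil3 and Ube2t, a ubiquitin-conjugating enzyme of crosslink repair, were lower with -2.65, -2.15 and -2.13. In lymphocytes against macrophages 45 of 68 were higher and 3 lower, where 30.4% and 33.1% of all genes were. Among them Clspn and Rpa2 were higher with 2.24 and 1.94, while Polb and Rev1 were lower with -0.99 and -0.81.

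More repair genes met the size rule between RT and NT in macrophages than in tumor cells. Of 33 repair genes with enough UMIs, 10 met the size rule downward (Rad51ap1, Bard1, Chek1, Atm, Exo1, Xrcc2, Brca2, Brca1, Parp1 and Mdc1) and 2 upward (Lig4 and Ercc1), where 7.57% of all genes met it downward and 11.9% upward. Without the highest doublet scores Brca1, Brca2, Exo1, Xrcc2 and Ercc1 no longer passed. Brca2 was also lost with at most 10% mitochondrial UMIs, and Brca1 and Xrcc2 without shared barcodes. With clusters not integrated Brca2, Xrcc2 and Lig4 were lost. Rad51ap1, Bard1, Chek1, Atm, Parp1 and Mdc1 passed in each of these settings. Whatever the size, 21 lay below NT in all 3 RT libraries and 7 above, where 31.9% and 35.0% of all genes did. The filter on UMIs is met mostly through RT cells, so these counts cover the genes that passed it and not all 40. Summed over all 40 genes, macrophages were at 447 CPM in NT (counting interval 421 to 475) and 349.7, 299.6 and 349 CPM in RT, below the NT interval in each RT library. Macrophages numbered 561 in NT and 2079, 2060 and 1221 in RT, so NT had the fewest UMIs.

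Rad51ap1 in macrophages was at 22.04 CPM in NT (counting interval 16.5 to 28.8), with RT1, RT2 and RT3 at 6.19, 3.18 and 5.32 CPM. Bard1 was at 11.6 CPM in NT (counting interval 7.74 to 16.8), with RT1, RT2 and RT3 at 3.45, 2.097 and 2.31 CPM. Chek1 was at 10.8 CPM in NT (counting interval 7.06 to 15.8), with RT1, RT2 and RT3 at 3.45, 1.79 and 4.63 CPM. All 3 RT libraries lay below the NT interval for each of these genes, with mean log2 ratios of -2.22 ± 0.50, -2.19 ± 0.38 and -1.82 ± 0.70 (SD, n = 3). Atm was at 10.4 CPM in NT (counting interval 6.73 to 15.3), with RT1, RT2 and RT3 at 2.98, 2.25 and 4.16 CPM. Exo1 was at 8.73 CPM in NT (counting interval 5.405 to 13.3), with RT1, RT2 and RT3 at 4.405, 1.71 and 3.702 CPM. Xrcc2 was at 5.405 CPM in NT (counting interval 2.88 to 9.24), with RT1, RT2 and RT3 at 3.21, 2.41 and 2.08 CPM. Their mean log2 ratios were -1.78 ± 0.44, -1.53 ± 0.73 and -1.10 ± 0.32, with RT1 of Xrcc2 inside the NT interval, which rests on 13 UMIs. Parp1 was at 87.7 CPM in NT (counting interval 76.3 to 100.4), with RT1, RT2 and RT3 at 59.3, 43.8 and 60.4 CPM. Brca1 was at 6.24 CPM in NT (counting interval 3.49 to 10.3), with RT1, RT2 and RT3 at 4.405, 2.25 and 3.93 CPM. Parp1 was below its interval in every RT library and Brca1 in RT2 alone. Of the genes in this paragraph, Exo1 exceeded the highest share of tumor transcripts in 2 of 4 libraries and Bard1 in 3, and the others in all 4.

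Other macrophage values stayed under the rule or were sparse. Xrcc6 was at 7.07 CPM in NT (counting interval 4.12 to 11.3), with RT1, RT2 and RT3 at 7.26, 7.61 and 6.94 CPM, level across the libraries. Msh6 was at 10.4 CPM in NT (counting interval 6.73 to 15.3), with RT1, RT2 and RT3 at 7.98, 4.74 and 6.02 CPM, with RT1 inside the interval. Prkdc was at 6.65 CPM in NT (counting interval 3.802 to 10.8), with RT1, RT2 and RT3 at 5.24, 3.11 and 3.702 CPM. Xpc went upward, at 5.82 CPM in NT (counting interval 3.18 to 9.77), with RT1, RT2 and RT3 at 9.88, 7.53 and 12.3 CPM, with RT2 at a log2 ratio of 0.37. The 2 genes past the rule upward had little behind them in NT, Lig4 with 5 UMIs at 2.08 CPM in NT (counting interval 0.675 to 4.85), with RT1, RT2 and RT3 at 6.19, 4.12 and 3.702 CPM, and Ercc1 with 4 UMIs at 1.66 CPM in NT (counting interval 0.453 to 4.26), with RT1, RT2 and RT3 at 2.62, 4.66 and 2.78 CPM. Xrcc5, Fancd2 and Ddb2 had 1, 4 and 6 UMIs in NT macrophages and were not read.

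Cycling macrophages were more frequent in NT. Counting UMIs of the S and G2M lists among 2000 UMIs per cell, 94 of 463 scored NT macrophages (20.3%) had 10 or more, against 3.22%, 2.19% and 3.53% in RT, and 62.2% of NT macrophages had 4 or fewer, against 84.0%, 88.6% and 82.0%. These are shares of the cells scored, and 98, 464, 142 and 344 macrophages with under 2000 UMIs were left out. Mki67, a marker of proliferation, was at 65.7 CPM in NT macrophages and 15.8, 11.0 and 18.3 CPM in RT. The S list summed to 1039 CPM in NT and 500.1, 433 and 541 CPM in RT. These cuts at 4 and 10 were chosen after the values were seen.

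Read by these cycle counts, the NT sum of the 19 cycle-linked genes exceeded every RT library in all macrophages and not in either subset. In all macrophages they summed to 236 CPM in NT (counting interval 217 to 256), with RT1, RT2 and RT3 at 149, 112 and 145 CPM. In macrophages with 4 or fewer cycle UMIs the sums were 120.5 CPM in NT (counting interval 102 to 141) and 121.2, 90.5 and 107 CPM in RT. There RT1 was nearly level with NT, RT3 was inside the NT interval and RT2 was below it. In macrophages with 10 or more the sums were 484 CPM in NT and 504, 474 and 603 CPM in RT. In both subsets the NT sum lay between RT values. The tumor gene Rhox5 was at 31.6 CPM in NT and 286, 308 and 482 CPM in RT in macrophages with 10 or more cycle UMIs. The part of tumor transcripts in the sums of either subset was not tested. The other 21 genes summed to 212 CPM in NT and 201, 188 and 204 CPM in RT over all macrophages. Summed over all 40 genes, macrophages with few cycle UMIs were at 296 CPM in NT (counting interval 267 to 327) and 311, 269 and 296 CPM in RT, all within the NT interval. These were 288 cells in NT and 1357, 1699 and 719 in RT, and 21 repair genes passed the filter, mostly through RT, of which Chek2, Lig4, Dclre1c and Msh6 met the rule upward from 2 to 11 UMIs in NT, and Mdc1 downward, where 14% and 5.99% of all genes did.

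**Figure D4:**
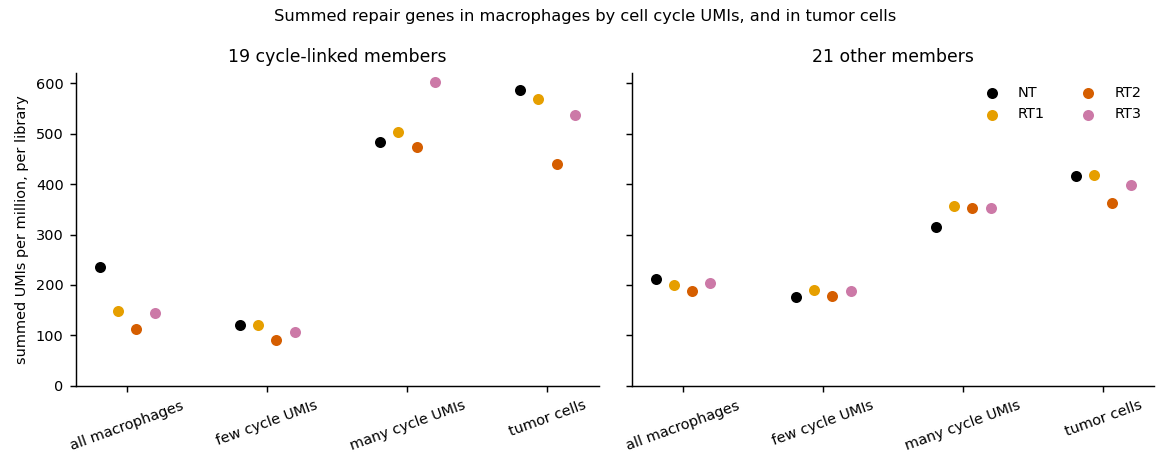
Summed CPM of the 19 cycle-linked repair genes (left) and the other 21 (right) in all macrophages, in macrophages with few or many cell cycle UMIs and in tumor cells, 1 point per library. NT lies above the RT libraries on the left for all macrophages (236 against 112 to 149 CPM). In cells with few cycle UMIs NT lies nearly level with RT1 and above RT2 and RT3 (120.5 against 90.5 to 121.2 CPM).

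Markers of other cell types in macrophages also differed between RT and NT. The 7 tumor markers summed to 78.6 CPM in NT and 124, 137 and 195 CPM in RT, with Rhox5 the most abundant, 4 of 7 higher in every RT library and Fmr1nb at 0 in every library. In macrophages with many cycle UMIs they were at 56.1 CPM in NT and 466, 673 and 991 CPM in RT, and in those with few at 80.8 CPM in NT and 88.0, 105 and 131 CPM in RT. The 7 neutrophil markers summed to 24.5 CPM in NT and 88.1, 123 and 76.6 CPM in RT, 6 of 7 higher in every RT library, with Csf3r the most abundant. The 7 fibroblast markers summed to 36.2 CPM in NT and 108, 91.02 and 129 CPM in RT, 6 of 7 higher in every RT library, with Col3a1 the most abundant. The 4 B cell markers went the other way, from 49.5 CPM in NT to 6.07, 11.9 and 9.95 CPM in RT, with 2 of 4 lower in every RT library and Ighm making up 45.7 CPM of the NT sum. The part of these transcripts in the repair gene values of macrophages was not tested.

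Of 74 other repair genes read in macrophages, 19 met the rule downward and 3 upward, where 7.57% and 11.9% of all genes did. Clspn was at 16.2 CPM in NT (counting interval 11.5 to 22.2), with RT1, RT2 and RT3 at 3.57, 2.33 and 3.93 CPM. H2afx was at 53.2 CPM in NT (counting interval 44.4 to 63.3), with RT1, RT2 and RT3 at 12.02, 18.2 and 14.6 CPM. All RT libraries lay far below the NT intervals for both genes, and of the upward genes Aptx and Wrn, a RecQ helicase, had 3 and 11 UMIs in NT. Of the p53 targets, 7 of 9 met the rule upward in macrophages, where 11.9% of all genes did. In tumor cells 2 of 10 did, where 8.79% of all genes did. Cdkn1a was at 302 CPM in NT (counting interval 281 to 325), with RT1, RT2 and RT3 at 1343, 2033 and 1245 CPM. Mdm2 was at 205 CPM in NT (counting interval 188 to 224), with RT1, RT2 and RT3 at 398, 509.6 and 761 CPM. Ccng1 was at 73.2 CPM in NT (counting interval 62.8 to 84.8), with RT1, RT2 and RT3 at 195, 165 and 176 CPM. In macrophages with few cycle UMIs the count was again 7 of 9, with Cdkn1a at 365 CPM in NT and 1366, 2089 and 1299 CPM in RT. Whether these targets differ between macrophages and tumor cells in their response was not tested.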

How the data were processed

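The authors made libraries with a 3′ kit, processed the reads with SeekOne Tools and deposited whole-number UMI counts per gene and barcode, 1 table per library and without normalization. The submitters' processing notes name STAR 2.5.1b, Subread 1.6.4, featureCounts, Cell Ranger and the builds GRCm39 and mm39, with no role given. Whether counting used strand is not given in the sources used here, so reads of overlapping, antisense or near-identical genes may be split. The RT2 table gave symbols only, for 18605 genes, and no barcode in it exceeded 11.95% mitochondrial UMIs, so it appears to have passed an added filter. Tables were joined by symbol. The 40 genes and all lists were chosen with earlier results of these data known.

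Barcodes under 200 genes or over 20% mitochondrial UMIs were removed. Counts were scaled to 10000 per cell and logged, 2000 variable genes (without repair, p53 target or cell cycle lists) were reduced to 30 components, integrated over libraries with a rewritten Harmony algorithm and clustered with the Leiden algorithm at resolution 0.8 (scanpy 1.11.5, leidenalg 0.10.2, Python 3.11.15). Clusters were named from marker lists. A cluster stayed unnamed when fewer than 3 markers were present, when it was mixed with another class, when it was shallow, or when another class led its top 10 genes. This naming rule was settled after clusterings were seen. A doublet caller marked no cell of NT and was not used to remove cells. Barcodes found in more than 1 library (1337 of 55805) were kept.

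UMIs were summed per library and cell type. Sums of the NT library carry exact Poisson intervals and cell shares are given without an interval in the text. Intervals are at 95% and cover counting error only. RT and NT were compared without a test, over genes with a mean of at least 20 UMIs per library, by log2 ratios of CPM, with a count of 0 set to a floor of 3. Classes and cell types were compared by edgeR 4.0.16 (R 4.3.3) on the counts, with TMM scaling, the library as block and Benjamini-Hochberg adjustment over all genes, and DESeq2 1.42.0 as an alternative. Tests were tried on simulated data first. Values per library are given for up to 6 repair genes per direction and comparison, by size among those called, and always for Atm, Chek1, Brca1, Rad51ap1, Xrcc5, Xrcc6, Prkdc, Parp1, Fancd2, Msh6, Xpc and Ddb2. Of 91 other repair genes 90 were in all tables, and up to 3 per direction are named, with some genes not reported here by name. Genes named beyond these, the rule of at least 1 on the log2 scale and the grouping by it, and the printed promoters were chosen after their values were seen.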

Additional observations from a re-analysis of the deposited data

Results flagged for a closer look

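In 3 of the 33 repair genes read in both cell types, every RT library lay on one side of NT in tumor cells and on the other side in macrophages. Among all genes read in both, 860 of 9215 (9.33%) did so, a share close to that of the repair genes. Xpc had a mean log2 ratio of RT over NT of -0.17 in tumor cells and 0.74 in macrophages, where NT held 14 UMIs. Rad52 was at -0.33 in tumor cells and 0.45 in macrophages, where NT held 8 UMIs. Lig3 was at -0.35 in tumor cells and 0.0639 in macrophages, from 19 UMIs in NT. None of the 3 met the size rule in either cell type, and the difference between the cell types was not tested, since there is 1 NT library.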

How the results depend on the processing

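No paired analysis of RT against NT was possible because NT is 1 library and shares its number with RT1 only by name. Of the headline counts recomputed under alternatives, 229 stayed within 1.5 times the reported count and 65 did not. Of the other recomputed entries, 2075 stayed the same, 67 were weaker, 16 moved, 7 were stronger and 7 reversed. The library as block mattered for genes lower in cycling classes, which fell from 5 to 1 in S and from 3 to 1 in G2M without it, and for S also to 3 with DESeq2, with clusters not integrated or with cells far from a class boundary. Leaving out 1 library gave 3 to 4 genes lower in S and 28 to 30 higher. Calls of at least 1 on the log2 scale, an alternative chosen after seeing the data, gave 19 higher and 0 lower in S, 15 and 0 in G2M, 1 higher in macrophages over tumor cells and 1 lower in lymphocytes against macrophages.

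Between cell types, scaling to UMI totals, also chosen after seeing the data, left 1 gene higher in macrophages than tumor cells and 1 lower in lymphocytes than macrophages. It turned Palb2 to -0.18, Xrcc4 to -0.0551 and Ddb2 to -0.36 in macrophages over tumor cells. Without 1 library 2 to 4 genes were higher in macrophages than tumor cells (2 without RT1 or RT2) and 1 to 3 were lower in lymphocytes than macrophages (1 without RT2). Without NT the log2 fold change of Xpc in macrophages over tumor cells turned to 0.0817. Ddb2 in S turned to -0.12 with clusters not integrated, to -0.10 with phases scored on all UMIs and to -0.00848 with cells far from a boundary. None of these reversed values was called.

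In tumor cells, RT against NT, 1 gene, Ddb2, was higher under TMM scaling, without the highest doublet scores and without shared barcodes, 0 to 2 without 1 RT library (2 without RT3), and 5 higher and 17 lower whatever the size. With the class mix of NT the same settings gave 1, 1 and 1 higher, 0 to 2 without 1 RT library, and 8 and 16 whatever the size. Among cells of neither class, 1 gene was higher with at most 10% mitochondrial UMIs, without the highest doublet scores, with clusters not integrated, without shared barcodes, with the cluster led by fibroblast markers or with cells far from a boundary, 0 when a log2 ratio of 1 was required, and 9 and 9 whatever the size. Leaving out 1 RT library gave 2 to 3 higher and 0 to 1 lower there. In the S class, 2 were higher with a mean of at least 1 UMI or with cells far from a boundary, 0 with at least 50 UMIs, 1 lower with phases scored on all UMIs, 9 and 16 whatever the size, and 1 to 2 higher and 0 to 1 lower without 1 RT library. In the G2M class, 0 were higher when a log2 ratio of 1 was required, with at most 10% mitochondrial UMIs, with clusters not integrated, with the cluster led by fibroblast markers, with phases scored on all UMIs or with cells far from a boundary, and 6 and 17 whatever the size. In macrophages, 0 higher and 1 lower were left with a mean of at least 50 UMIs, 0 and 4 when a log2 ratio of 1 was required, 7 and 21 whatever the size, 1 higher with clusters not integrated, and 4 and 1 in macrophages with few cycle UMIs, while leaving out 1 RT library gave 2 to 3 higher and 10 to 12 lower. Beyond settings that leave fewer genes or cells, the cause was not tested.

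The 1 NT library sets the limit on every RT comparison. Its 561 macrophages gave 1 to 53 UMIs for most repair genes, so differences there rest on few counts. The RT2 table appears to have passed an added filter, and RT2 cannot be told apart from such a filter. Many cells lie near a class boundary, and tumor RNA under host barcodes bounds what can be read in lymphocytes and macrophages.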

Other observations

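Ercc1 in endothelial cells of NT was at 107 CPM, from 19 UMIs in 6 of 34 cells, of which 12 were in 1 cell. In RT the endothelial cells held 2, 17 and 4 UMIs of Ercc1 in 2 of 109, 14 of 156 and 3 of 41 cells, with at most 2 in 1 cell.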
